A study of Mus musculus with 6 samples.

Results

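Trp53, the gene of the tumor suppressor p53, and 9 genes that p53 is known to activate were examined in N18-Fms prostate cancer cells stimulated or not with CSF-1. The 10 genes, Trp53, Mdm2, Ccng1, Trp53inp1, Sesn2, Gadd45a, Bbc3, Phlda3, Perp and Zmat3, were found by the gene name that the array annotation gives each probe, among 36163 genes named on the array. All 10 had at least 1 usable probe, and 9 passed the filter on dim probes and were tested among 24648 genes. Perp did not pass. The question was whether the targets of p53 rose together after stimulation.

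N18-Fms cells descend from the C2H line of a TRAMP mouse prostate tumor through 1 luciferase-expressing subclone, N18, which was transduced by retrovirus with the murine c-fms gene, encoding the CSF-1 receptor, and sorted for receptor expression. The unstimulated cells (2 arrays) therefore also carry the transduced receptor, and C2H cells secrete CSF-1 of their own. The other groups received murine CSF-1 at 100 ng/mL for 24 h (2 arrays) or 48 h (2 arrays) according to the sample labels, whereas the methods of the study give shorter times. In TRAMP mice an androgen-driven viral transgene encodes the large T antigen, a protein that binds p53; whether these cells still make it was not measured here. No group had p53 activated or deleted.

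p53 is a transcription factor that is kept scarce by the ubiquitin ligase Mdm2 and is stabilized, mostly without more of its mRNA, when DNA is damaged or oncogenes are active. It then binds paired half-sites near its target genes, whose products halt the cell cycle, repair DNA, adjust metabolism or start apoptosis. Several targets limit p53 in return, Mdm2 and Ccng1 among them. Some, such as Gadd45a, Sesn2 and Cdkn1a, the gene of the cell cycle inhibitor p21, also answer to other stress and growth signals. mRNA levels of the targets are thus often read together, although each alone does not report p53 activity.

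The stretches in which the p53 half-site consensus occurs upstream of these genes are shown because the members were grouped by their link to p53. RefSeq promoter windows on GRCm38.p6, from 250 bases before to 50 after each gene start, were given for 7 of the 10 genes. A half-site is a palindromic motif that reads the same on both strands. One was found in 4 of the 9 windows of these 7 genes, those of Trp53, Mdm2, Ccng1 and Gadd45a. Of all 32851 windows, 8.36% held one. A pair of half-sites with at most 13 bases between them was present in 0.0731% of all windows and in 0 of the 9 windows of the members; the Cdkn1a promoter, shown for comparison, holds such a pair. Each line gives 100 bases upstream of the start, 5′ to 3′ along the gene, with half-sites in capitals. They lie at chr11:69580239-69580338, plus strand (Trp53), chr10:117710890-117710989, minus strand (Mdm2), chr11:40755417-40755516, minus strand (Ccng1), chr6:67037408-67037507, minus strand (Gadd45a) and chr17:29090872-29090971, plus strand (Cdkn1a). A match is a description of the sequence, not a bound site.
Trp53: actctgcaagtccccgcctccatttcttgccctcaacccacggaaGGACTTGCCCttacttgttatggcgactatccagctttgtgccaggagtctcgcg
Mdm2: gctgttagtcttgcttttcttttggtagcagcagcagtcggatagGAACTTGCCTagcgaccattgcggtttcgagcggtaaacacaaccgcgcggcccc
Ccng1: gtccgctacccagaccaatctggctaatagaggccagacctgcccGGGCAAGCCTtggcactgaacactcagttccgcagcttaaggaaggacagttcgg
Gadd45a: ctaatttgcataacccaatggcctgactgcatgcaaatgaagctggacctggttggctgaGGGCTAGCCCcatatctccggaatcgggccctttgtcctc
Cdkn1a: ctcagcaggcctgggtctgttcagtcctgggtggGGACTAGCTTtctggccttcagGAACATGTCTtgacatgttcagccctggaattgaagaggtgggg

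Values are given as relative signal, the log2 of the background-subtracted spot intensity minus the 75th percentile of the array, so 0 is the level that 75% of spots do not exceed. Levels of different probes are not comparable with each other, and changes are log2 fold changes with their standard error (SE) from a limma fit of all 6 arrays. A gene was called when its p-value, adjusted over all genes tested by the Benjamini-Hochberg procedure, was under 0.05. With 2 arrays against 2, an exact permutation test cannot give a p under 0.333. The study states that its RNA came from 2 independent experiments. The labels do not say which arrays shared an experiment, and p-values measure the spread between these arrays.

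Between 58.7% and 72% of spots per array were well above background and 0 were saturated. The array of CSF-1 24 h replicate 1 was alone on its slide, while the other 5 shared 1 slide. The cells were checked against marker lists. Of the 6 prostate epithelial markers, Cdh1 was well above background on 0 arrays, Epcam on 1 and Krt8 on 6. Among fibroblast markers, Col1a1 ranged from 5.62 to 6.97 and Col1a2 from 6.08 to 7.63 in relative signal. Of 9 macrophage markers, Lyz2 and Spi1 were well above background on 0 arrays, whereas Itgam (4.4 to 5.4), Cd14 (0.98 to 1.92), Ptprc (-4.01 to -2.99), Adgre1 (-2.90 to -2.48) and Csf1r, the transduced receptor (4.88 to 5.34), were on all 6. With CSF-1, Cd14 rose by 0.87 at 24 h (adjusted p = 0.0101) and 0.69 at 48 h (adjusted p = 0.0191). Krt8 differed by 0.74 at 24 h and 1.98 at 48 h, Col1a1 by -0.88 and -1.19, and Dcn by 2.08 and 2.78; their part in the results was not tested. In such bulk RNA, fewer cells of a type and less RNA per cell cannot be told apart.

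The p53 targets did not rise as a group. At 24 h, 0 of the 9 tested genes were called higher and 2, Ccng1 and Zmat3, were called lower, while 8.02% of all genes tested were called higher and 5.99% lower. At 48 h, Gadd45a was called higher and Zmat3 lower, 1 gene each way, beside 6.58% of all genes higher and 7.38% lower. The median change of the 9 genes, Trp53 among them, was -0.05 at 24 h and -0.15 at 48 h, against 0.04 and -0.04 over all genes tested. For the 8 tested targets without Trp53 the median was -0.1 and -0.12, with 4 changes positive and 4 negative at each time. Without CSF-1 24 h replicate 1, which is also the fit within the shared slide, Zmat3 was the only member called at 24 h and 0 members were called at 48 h. Without either unstimulated array or CSF-1 24 h replicate 2, 0 members were called at either time. Without CSF-1 48 h replicate 1 or replicate 2, Gadd45a was called higher and Phlda3 and Zmat3 lower at 24 h, and at 48 h Gadd45a was the only call without replicate 1, with 0 calls without replicate 2.

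At an unadjusted p under 0.05, 2 members were higher and 3 lower at 24 h (17.1% and 14.2% of all genes), and 1 was higher and 4 lower at 48 h (12.1% and 18.8%). With a fold change of at least 2 in addition, 0 members passed at 24 h, where 5.86% of all genes were higher and 1.83% lower, and Gadd45a passed at 48 h, where 4.66% were higher and 1.83% lower. Both stimulated arrays lay above both unstimulated arrays for 2 members and below them for 4 at 24 h (31.3% and 27.7% of all genes), and for 2 and 5 members at 48 h (23.8% and 35.0%). No test of these counts was made. Over all genes, 1977 were called higher and 1477 lower at 24 h, a split that became 1197 and 3706 with median centring and 1819 and 2063 with normexp background correction and quantile normalization.

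**Figure D1:**
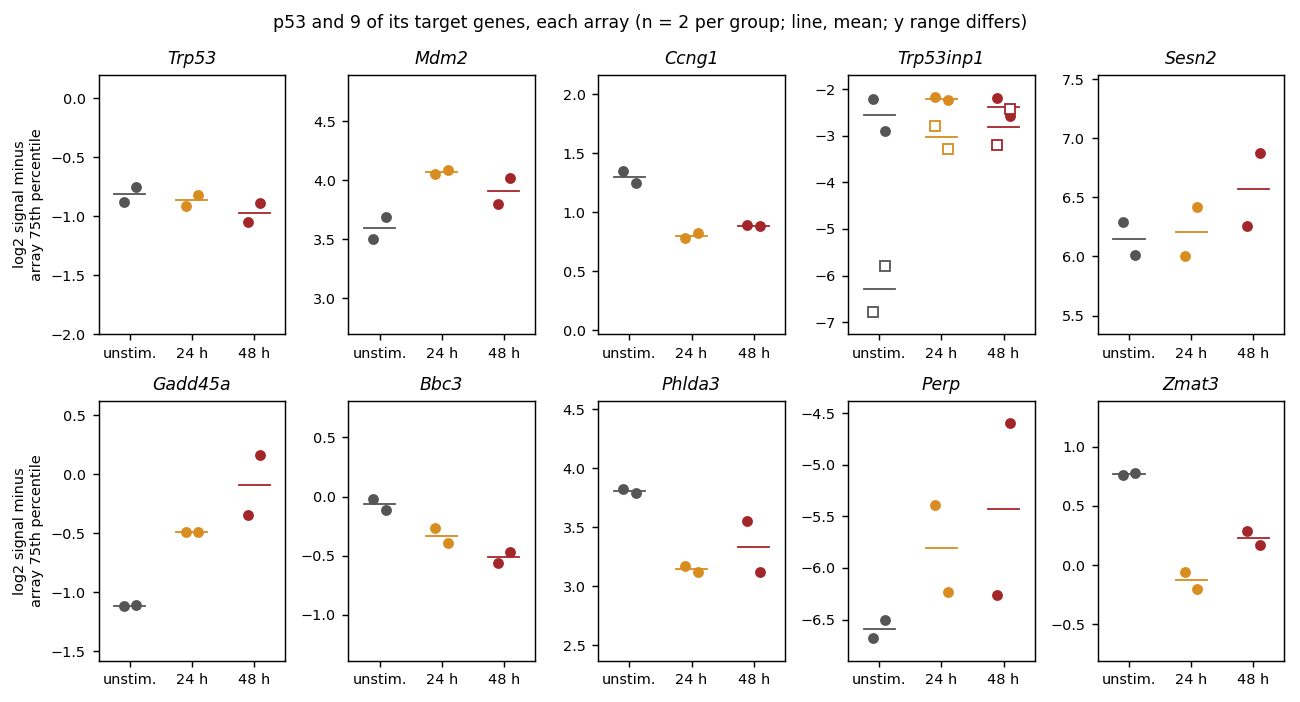
Relative signal (log2 signal minus the array's 75th percentile, y axis) of p53 and 9 targets on each of the 6 arrays, by group (x axis); points are arrays, lines are means of 2 arrays, and open squares are the other Trp53inp1 probe. Zmat3, Ccng1, Phlda3 and Bbc3 sit lower on all 4 stimulated arrays than on the unstimulated ones, Mdm2 and Gadd45a sit higher, and the y range differs between panels.

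Trp53 itself was measured by a probe on chromosome 11 (mm9, 69404204 to 69404263, plus strand; NM_011640), spotted 2 times per array. Its relative signal was -0.88 and -0.75 in unstimulated cells, -0.91 and -0.82 at 24 h, and -1.05 and -0.89 at 48 h. The 24 h arrays overlapped the unstimulated ones, and the 48 h arrays lay just below them. The change was -0.05 (SE 0.12, 95% interval -0.36 to 0.26, adjusted p = 0.832) at 24 h and -0.15 (SE 0.12, interval -0.46 to 0.16, adjusted p = 0.465) at 48 h. A change of the p53 mRNA was therefore not detected, and the level of p53 protein was not measured. Of its relatives, Trp63 changed by -0.33 and -0.15 and Trp73 by 0.08 and -0.15, and neither was called.

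Mdm2 and Ccng1 act on p53 in return. Mdm2 ubiquitinates p53, and Ccng1, cyclin G1, directs a phosphatase to Mdm2. The Mdm2 probe (chromosome 10, 117126010 to 117126069, mm9, minus strand) read 3.50 and 3.69 in unstimulated cells, 4.05 and 4.09 at 24 h, and 3.80 and 4.02 at 48 h. All 4 stimulated arrays were above the unstimulated ones. The difference was 0.47 (SE 0.13, 1.39-fold, unadjusted p = 0.015, adjusted p = 0.0772) at 24 h and 0.31 (SE 0.13, 1.24-fold, adjusted p = 0.189) at 48 h, and neither passed. The call at 24 h was made with either normexp setting and with an intensity trend in the fit, where its adjusted p was as low as 0.0129.

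Ccng1 differed in the opposite direction to Mdm2, which was not called. Its probe (chromosome 11, 40562427 to 40562486, mm9, minus strand) read 1.35 and 1.25 in unstimulated cells, 0.78 and 0.82 at 24 h, and 0.89 and 0.88 at 48 h. The stimulated arrays were all lower, and the spread within each group was small. Ccng1 fell at 24 h by 0.50 on the log2 scale (SE 0.11, 1.41-fold lower, adjusted p = 0.038), and at 48 h the difference was -0.42 (SE 0.11, 1.33-fold lower, adjusted p = 0.0584). Leaving out any 1 of the 6 arrays ended the call at 24 h, with adjusted p from 0.0729 to 0.155 and a change from -0.55 to -0.45.

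Gadd45a, which binds cell cycle kinases and stress kinase activators after DNA damage, was read by a probe on chromosome 6 (66985376 to 66985435, mm9, minus strand). Its relative signal was -1.12 and -1.11 in unstimulated cells, -0.49 and -0.49 at 24 h, and -0.35 and 0.16 at 48 h. Every stimulated array was above the unstimulated arrays, and the 48 h arrays were above those of 24 h but apart from each other. Gadd45a differed by 0.62 at 24 h (SE 0.19, 1.54-fold, adjusted p = 0.0853) and rose at 48 h by 1.02 (SE 0.19, 2.03-fold, adjusted p = 0.0265). The call at 48 h held without CSF-1 48 h replicate 1 (1.28, adjusted p = 0.0215) and was lost without any other array, with adjusted p of 0.0699 without CSF-1 48 h replicate 2, 0.0554 without either 24 h array, and 0.115 and 0.108 without unstimulated replicate 1 and 2.

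Sesn2, a leucine-binding protein that restrains the growth kinase mTORC1, showed no separation of the groups. The probe (chromosome 4, 132048858 to 132048917, mm9, minus strand) read 6.29 and 6.01 in unstimulated cells, 6.0 and 6.42 at 24 h, and 6.26 and 6.88 at 48 h. The 3 groups overlapped. The difference was 0.06 (SE 0.26, 95% interval -0.60 to 0.72, adjusted p = 0.913) at 24 h and 0.42 (SE 0.26, interval -0.24 to 1.09, adjusted p = 0.342) at 48 h. Its sign at 24 h turned negative with median centring (-0.22) and without unstimulated replicate 2 (-0.09) or CSF-1 24 h replicate 2 (-0.15).

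Phlda3, a small protein that competes with the kinase AKT for membrane lipids, was lower on every stimulated array. Its values, from a probe on chromosome 1 (137665642 to 137665701, mm9, plus strand), were 3.82 and 3.79 in unstimulated cells, 3.17 and 3.12 at 24 h, and 3.55 and 3.12 at 48 h. The 24 h arrays were close together, and 1 of the 48 h arrays lay between them and the unstimulated cells. The difference was -0.66 (SE 0.16, 1.58-fold lower, adjusted p = 0.0557) at 24 h and -0.47 (SE 0.16, 1.39-fold lower, adjusted p = 0.124) at 48 h. At 24 h it was called in 6 of 16 alternative fits, counting settings that give an identical fit once, with adjusted p from 0.013 to 0.175.

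**Figure D2:**
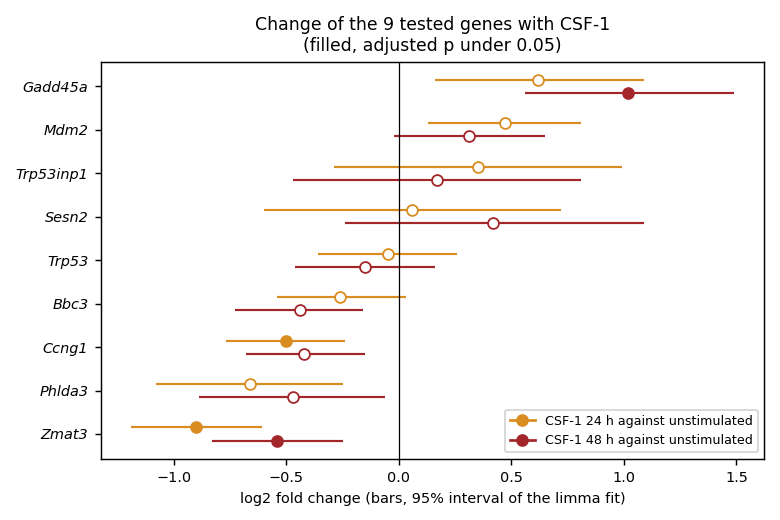
Log2 fold change (x axis) of the 9 tested genes in stimulated against unstimulated cells at each time, with the 95% interval of the limma fit of 6 arrays (bars); filled points have an adjusted p under 0.05. Ccng1 and Zmat3 are filled at 24 h and Gadd45a and Zmat3 at 48 h, with genes on both sides of 0.

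Bbc3, which was not called, encodes PUMA, which frees the apoptosis effectors Bax and Bak from their inhibitors. Its probe (chromosome 7, 16903403 to 16903462, mm9, plus strand) read -0.02 and -0.11 in unstimulated cells, -0.27 and -0.39 at 24 h, and -0.56 and -0.47 at 48 h. Both 24 h arrays were lower than the unstimulated ones, and both 48 h arrays lower still. The difference was -0.26 (SE 0.11, adjusted p = 0.198) at 24 h and -0.44 (SE 0.11, 1.36-fold lower, adjusted p = 0.0599) at 48 h.

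Trp53inp1, a stress protein that promotes autophagy and p53-dependent cell death, was measured by 2 probes of the same transcript (NM_021897) that did not give the same result. The brighter one (chromosome 4, 11092530 to 11092589, mm9, plus strand), which stood for the gene, read -2.22 and -2.89 in unstimulated cells, -2.17 and -2.24 at 24 h, and -2.20 and -2.58 at 48 h. The stimulated arrays lay near the higher of the unstimulated arrays or between the pair. The difference was 0.35 (SE 0.26, adjusted p = 0.416) at 24 h and 0.17 (SE 0.26, adjusted p = 0.716) at 48 h.

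The other Trp53inp1 probe lies 8644 bases further along the same strand (11101174 to 11101233). It read -6.78 and -5.79 in unstimulated cells, not well above background, and then -2.79 and -3.28 at 24 h and -3.19 and -2.43 at 48 h, well above background on all 4 arrays. The stimulated arrays were separate from the unstimulated ones by a wide gap. Since the unstimulated level is only a bound, the signal was at least 4.4-fold higher at 24 h and at least 5.14-fold higher at 48 h, taking for each unstimulated array the higher of its lowest signal among probes well above background and the probe's own signal. In a fit with every probe on its own, the change of this probe passed at 24 h (adjusted p = 0.0125) and 48 h (adjusted p = 0.0113), and that of the brighter probe did not (adjusted p = 0.42 and 0.723). The difference between the probes was not tested.

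Perp, a membrane protein of desmosomes that also takes part in p53-dependent apoptosis, was near background. Its probe (chromosome 10, 18576697 to 18576756, mm9, plus strand) read -6.68 and -6.50 in unstimulated cells, -5.39 and -6.23 at 24 h, and -6.26 and -4.60 at 48 h. Only CSF-1 48 h replicate 2 was well above background, so Perp gives no comparison in either direction.

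Zmat3, a zinc finger protein that binds RNA and influences splicing and mRNA stability, was the member called at both times. The probe (chromosome 3, 32233831 to 32233890, mm9, minus strand) read 0.76 and 0.78 in unstimulated cells, -0.06 and -0.20 at 24 h, and 0.29 and 0.17 at 48 h. The 3 groups did not overlap, and the 48 h arrays lay between the others. Zmat3 fell by 0.90 on the log2 scale at 24 h (SE 0.12, 1.86-fold lower, adjusted p = 0.0107) and by 0.54 at 48 h (SE 0.12, 1.45-fold lower, adjusted p = 0.0392). At 24 h the call was lost without unstimulated replicate 1 (adjusted p = 0.0535), unstimulated replicate 2 (0.0618) or CSF-1 24 h replicate 2 (0.0615), and at 48 h without any 1 array (adjusted p from 0.0691 to 0.168).

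Comparing the later time with the earlier, limma called 0 of the 9 members and 0 of 24648 genes (0.00%). Without adjustment, 1 member was past 0.05, beside 4.38% of all genes higher and 9.24% lower. It was Zmat3, higher at 48 h than at 24 h by 0.36 (SE 0.12, adjusted p = 0.281). By the methods' test without adjustment 1 member passed as well, Ccng1, whose difference was 0.09, beside 3.28% of all genes higher and 7.21% lower by that test. The differences of the other tested members between the times ran from -0.19 for Trp53inp1 to 0.40 for Gadd45a, so the size of the response at 24 h and at 48 h was not distinguished for any member.

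Of 17 genes that control p53, 0 were called higher and 2 lower at 24 h (8.02% and 5.99% of all genes), and 1 higher and 1 lower at 48 h (6.58% and 7.38%), with a median of -0.16 and -0.12. With quantile normalization 2 were higher and 0 lower at 24 h, beside 5.83% and 5.49% of all genes. Atr, a kinase of the DNA damage response, fell at both times (-0.60, adjusted p = 0.0463, and -0.90, adjusted p = 0.0179). Usp7, which removes ubiquitin from p53 and Mdm2, fell at 24 h (-0.56, adjusted p = 0.0451), and Daxx, a partner of Mdm2 and Usp7, rose at 48 h (0.96, adjusted p = 0.0271). The calls of Atr and Usp7 at 24 h were lost without any 1 array, with adjusted p up to 0.173 and 0.183. Those at 48 h were lost without some arrays, with adjusted p up to 0.0871 for Atr and 0.12 for Daxx. Mdm4, the p53-binding relative of Mdm2, changed by 0.36 and 0.15, with its sign at 24 h negative under quantile normalization (-0.01) and without CSF-1 24 h replicate 1 (-0.17), and Cdkn2a, which encodes the Mdm2 inhibitor Arf and the kinase inhibitor p16, by -0.34 and 0.05. Neither was called.

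The wider set of p53 targets held calls in both directions. In 5 lists that hold 43 tested targets besides the members, 3 were called higher and 9 lower at 24 h (8.02% and 5.99% of all genes), and 2 higher and 8 lower at 48 h (6.58% and 7.38%), with a median of -0.17 at both times. Of the apoptosis targets, 4 of 11 tested were called lower at 24 h, and 1, Dram1, higher. The lower ones were Siva1 (-0.90), Aen (-0.65), Bid (-0.94, adjusted p = 0.0498) and Bax (-0.59, adjusted p = 0.0388). The calls of Aen and Bax were lost without any 1 array, and those of Siva1 and Bid without some arrays. With quantile normalization Aen, Bid and Bax were not called, while either normexp setting called all 4. At 48 h Siva1 (-0.75) and Aen (-0.7) were called lower, but Bid (-0.41, adjusted p = 0.281) and Bax (-0.23, adjusted p = 0.277) were not. The death receptor gene Fas differed by 0.74 and 0.99 without being called, and Pmaip1, which encodes the BH3-only protein Noxa, was well above background on 0 arrays. Of the metabolism and antioxidant targets, 2 of 9 were called lower at 24 h, Sesn1 (-1.34, adjusted p = 0.00444) and Gls2 (-1.02, adjusted p = 0.0266). Of the DNA repair and nucleotide supply targets, 0 of 8 were called at 24 h, where 1 was higher and 2 lower at an unadjusted p under 0.05, and Polh fell at 48 h (-0.82, adjusted p = 0.0357). Among secreted and other targets, Thbs1 fell at 24 h (-1.87, adjusted p = 0.0326) and Rap2b at 48 h (-0.84, adjusted p = 0.0103). The balance of directions depended on the fit. With only the 2 groups compared, 6 targets were higher and 5 lower at 24 h, beside 6.81% and 3.49% of all genes. At 48 h in that fit 1 was higher and 5 lower, beside 4.68% and 3.91% of all genes. With any 1 array left out, fewer targets in total and fewer of all genes were called at both times.

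**Figure D3:**
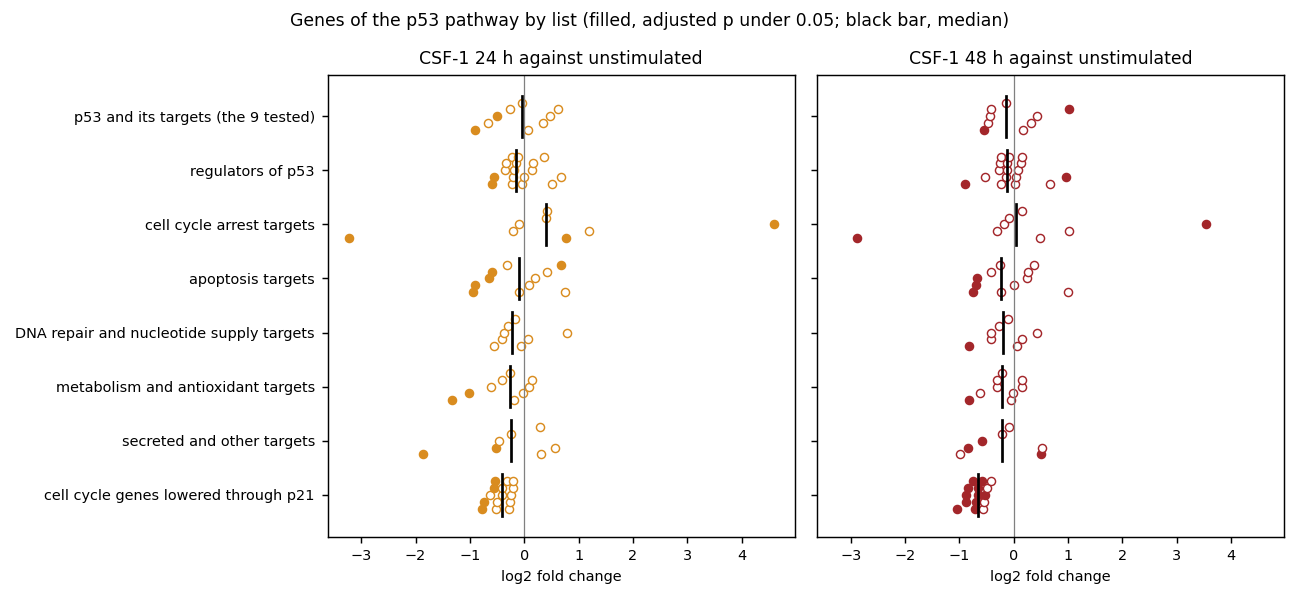
Log2 fold change (x axis) of each tested gene of the p53 pathway lists (y axis) at 24 h (left) and 48 h (right) of CSF-1 against unstimulated cells; each point is a gene, filled where the adjusted p is under 0.05, and black bars are list medians. Cdkn1a stands far to the right and Plk2 far to the left, at 4.59 and -3.23 at 24 h, while the other targets gather around 0 and the cell cycle genes lie below it.

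The largest changes of the targets were in the cell cycle arrest list and were opposite. Cdkn1a read -3.95 and -3.38 in unstimulated cells, 0.75 and 1.09 at 24 h, and -0.19 and -0.07 at 48 h. Every stimulated array stood far above the unstimulated ones. The rise was 4.59 (adjusted p = 0.00145) at 24 h and 3.53 (adjusted p = 0.0019) at 48 h, and it was called whichever array was left out. A dimmer Cdkn1a probe rose by 1.23 (adjusted p = 0.0133) and 0.83 (adjusted p = 0.0353), and another was well above background on 1 array.

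Plk2, a polo-like kinase, read 2.53 and 2.13 in unstimulated cells, -0.99 and -0.82 at 24 h, and -0.73 and -0.38 at 48 h. It fell by 3.23 (adjusted p = 0.00204) and 2.88 (adjusted p = 0.00209). With 1 array left out the change ran from -3.43 to -3.04 and from -3.08 to -2.69. Its relative Plk3 rose at 24 h (0.77, adjusted p = 0.0326), a call lost without either unstimulated or either 24 h array (adjusted p from 0.0871 to 0.135), with median centring (0.48, adjusted p = 0.142), with no filter on dim probes and by the methods' test adjusted. Of the 15 cell cycle genes that p53 is known to lower through p21, 4 were called lower at 24 h and 11 at 48 h, beside 5.99% and 7.38% of all genes, 0 were higher, and the median was -0.42 and -0.65. All 15 changes were negative at both times, but the number called moved with the fit, as did the share over all genes. With only the 2 groups compared, 1 was called lower at 24 h and 7 at 48 h, beside 3.49% and 3.91% of all genes. With no filter on dim probes, 0 were called at both times, beside 0.974% and 0.583% of all genes called lower. With any 1 array left out, fewer of them and fewer of all genes were called lower at both times. Examples are Ccna2, cyclin A (-0.74 and -1.05), Mcm5, a subunit of the replicative helicase (-0.78 and -0.88), and Cdc20, an activator of the anaphase ligase (-0.56 and -0.88). Both replicates at each time were below the unstimulated cells for 13 of the 15 genes at 24 h and 14 at 48 h, beside 27.7% and 35.0% of all genes.

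Among close relatives of the members, some changes were larger than those of the members as read by the brightest probe of each. The dimmer Trp53inp1 probe is left out of this comparison. It differed by 3.25 at 24 h and 3.47 at 48 h, with its unstimulated signal not well above background. The sizes were not tested against each other. Of 7 tested, 3 were called higher and 2 lower at 24 h, and 2 were higher and 2 lower at 48 h, beside 8.02% and 5.99% of all genes at 24 h and 6.58% and 7.38% at 48 h. Ccng2, cyclin G2, rose by 2.67 (adjusted p = 0.00435) and 2.47 (adjusted p = 0.00474) while Ccng1 was lower on the same arrays. Trp53inp2, an autophagy protein, rose by 1.94 (adjusted p = 0.00384) and 1.96 (adjusted p = 0.00325). Gadd45b fell by 1.25 (adjusted p = 0.0144) and 1.30 (adjusted p = 0.0139), opposite in sign to Gadd45a. Sesn1 fell, as given above, while Sesn2 was not called, and Phlda1, named after its values were seen, was the third gene called higher at 24 h. The calls of Gadd45b were lost without some arrays, with adjusted p up to 0.0677 at 24 h and 0.0764 at 48 h.

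**Figure D4:**
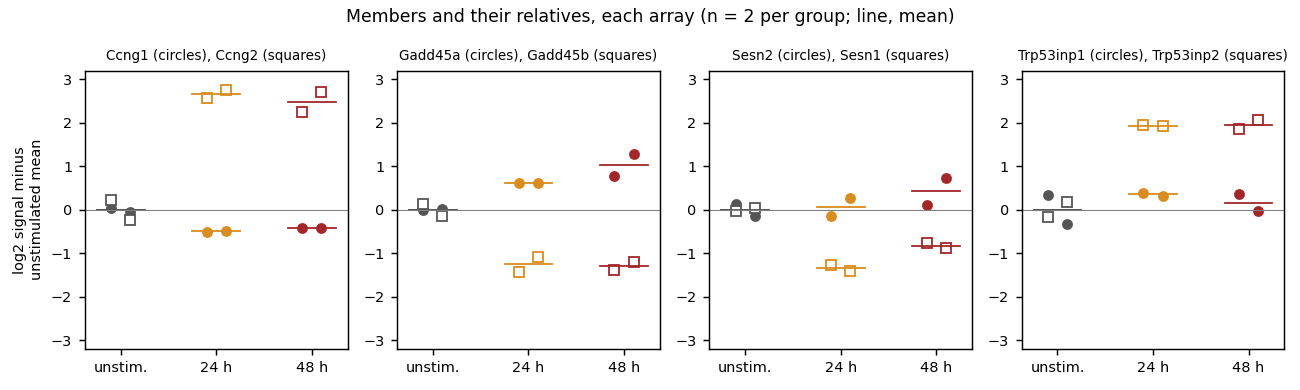
Relative signal minus the unstimulated mean (log2, y axis) of 4 members (filled circles) and a relative of each (open squares) on every array, by group (x axis); lines are means of 2 arrays. Ccng2 and Trp53inp2 stand near 2 or above on the stimulated arrays, Gadd45b and Sesn1 below 0, and the members between -1 and 1.3. Only the brighter Trp53inp1 probe is drawn.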

How the data were processed

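RNA of N18-Fms cells was hybridised to 6 single-color Agilent mouse arrays, 2 in each of 3 groups taken from the sample labels. The authors deposited Feature Extraction 11.0.1 output, from which the background-subtracted spot intensity was used, with the mean spot and local background intensity for normexp. A table of log2 values that the authors deposited for 44323 probes served as an alternative; its differences between arrays were within 0.05 of those of the log2 signals for 99.81% of values, its probe baseline is unknown, and the median of its columns was 0.026 and -0.037 (unstimulated), 0.174 and 0.007 (24 h), and -0.009 and -0.024 (48 h). Its direction follows the signals.

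Outlier spots were left out, and repeated spots were averaged on the log2 scale after the 75th percentile of each array was subtracted. The brightest probe stood for a gene. A gene was tested if some group had it well above background on each of its 2 arrays, with limma 3.58.1 in R 4.3.3 (lmFit and eBayes, 2-sided, 3 residual and 2.39 prior degrees of freedom), with data.table (version 1.17.8). Alternatives changed the scaling, background correction, filter, probe summary, fit, slide or arrays used. The methods' test is the unmoderated equal-variance test of 2 groups, the Student t-test that the study names in its general statistics section. For the arrays the study names the GeneSpring software without stating the test. The procedure was tested on simulated data. Promoters were searched in Python 3.11.15.

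The members and gene lists were chosen with earlier results of these data known. Named are all members, Cdkn1a, Bax, Fas, Pmaip1, Mdm4, Cdkn2a and, from each list, up to 3 genes with the largest mean change among those called at either time. Some of these genes and markers are not reported here.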

Additional observations from a re-analysis of the deposited data

How the results depend on the processing

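At most 2 members were called higher at either time under any alternative, while calls of single members changed often. The members called at 24 h were 0 higher and 2 lower. Higher calls numbered 2 with normexp correction and the 75th percentile, with an intensity trend or by the methods' test unadjusted, and 1 with normexp and quantile normalization, with the mean of probes or with only the 2 groups compared. Lower calls numbered 4 with median centring, 1 with no filter on dim probes or with the slide as a block, and 0 by the methods' test adjusted or at an unadjusted p under 0.05 and 2-fold. They numbered 3 with either normexp setting, with all 6 arrays well above background, with an intensity trend or by the methods' test unadjusted. At 48 h, where 1 was higher and 1 lower, higher calls numbered 2 with normexp and quantile normalization or with the mean of probes, and 0 with no filter, with only the 2 groups compared, with the slide as a block and by the methods' test adjusted or unadjusted. Lower calls numbered 4 with normexp and the 75th percentile or an intensity trend, 3 with normexp and quantile normalization, with all 6 arrays well above background or by the methods' test unadjusted, and 0 with no filter, with only the 2 groups, with the slide as a block, by the methods' test adjusted and with the 2-fold rule. The call added by the mean of probes was Trp53inp1, whose mean holds a probe at background in unstimulated cells. The share of all genes called moved with these settings. At 24 h the shares higher were 8.40% with normexp and the 75th percentile, 8.74% with an intensity trend, 11% by the methods' test unadjusted, 7.38% with normexp and quantile normalization, 8.33% with the mean of probes and 6.81% with only the 2 groups. Those lower were 15% with median centring, 0.974% with no filter, 1.47% with the slide as a block and 1.83% with the 2-fold rule. At 48 h those higher were 8.31% with normexp and quantile normalization, 6.09% with the mean of probes, 1.83% with no filter, 4.68% with only the 2 groups or the slide as a block and 8.13% by the methods' test unadjusted. Those lower were 11.9% with normexp and the 75th percentile, 13.8% with an intensity trend, 9.96% with normexp and quantile normalization, 11.7% with all 6 arrays well above background, 14.1% by the methods' test unadjusted, 0.583% with no filter, 3.91% with only the 2 groups or the slide as a block and 1.83% with the 2-fold rule. The methods' test adjusted called 0.00% of all genes at each time. From 24 h to 48 h the methods' test called 1 member higher unadjusted. With 1 array left out, higher calls ran from 0 to 1 at each time, lower calls from 0 to 2 at 24 h and were 0 at 48 h.

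The other targets called, 12 at 24 h and 10 at 48 h, became 4 and 2 with no filter and 6 and 3 with the 2-fold rule. They became 6 at 48 h with only the 2 groups compared, and 0 and 0 by the methods' test adjusted. The share of all genes called fell in each of these fits as well. With the slide as a block or 1 array left out, fewer of these targets and fewer of all genes were called at both times. Median centring moved the median of all genes from 0.04 to -0.25 at 24 h and from -0.04 to -0.14 at 48 h. It moved that of the members to -0.33, -0.25 and, between the times, 0.27. With no filter the members' median at 48 h was 0.01, a median that then includes Perp (1.15, SE 0.63), which was near background. Without 1 array the members' median ran from -0.15 to 0 at 24 h, from -0.23 to -0.07 at 48 h and from -0.02 to 0.10 between the times.

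Signs that turned were of uncalled changes, among them that of Mdm4 at 24 h, 0.36 (SE 0.39) in the main fit. Median centring gave -0.22 for Sesn2 at 24 h, -0.05 for Cdkn2a at 48 h and, between the times, 0.08 for Trp53 and 0.03 for Mdm2. Mdm4 was -0.01 at 24 h with quantile normalization, 0 and -0.01 with normexp and quantile normalization, and -0.17 at 24 h with the slide as a block. Trp53inp1 was 0.02 between the times with the mean of probes. With 1 array left out, Trp53 ran from -0.11 to 0.01 and Sesn2 from -0.15 to 0.27 at 24 h, Trp53inp1 from -0.17 to 0.50 at 48 h and from -0.38 to 0.01 between the times, Mdm4 from -0.17 to 0.89 at 24 h and from -0.15 to 0.45 at 48 h, Cdkn2a from -0.03 to 0.14 at 48 h and Phlda3 from -0.02 to 0.40 between the times. The cause was not tested.

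Arrays with the same replicate number correlated in their deviations by 0.128, 0.094 and 0.199, all positive but low. The labels do not say whether the numbers stand for the experiments of the study, and the main fit did not pair arrays by them. With the replicate block, the members called were the same, 2 lower at 24 h and 1 each way at 48 h, and the medians stayed at -0.05, -0.15 and 0.09. More of all genes were called with it, at 24 h 9.10% higher and 6.32% lower against 8.02% and 5.99%, and at 48 h 7.47% and 8.63% against 6.58% and 7.38%. The number of arrays, and for Perp and the dimmer Trp53inp1 probe the signal over background, limit these results.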
